A study of Mus musculus with 6 samples.

Results

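Very wide peaks are the stretches of accessible chromatin that ran for at least 1500 bp without a break in an autosomal peak list. They were chosen by the measured length of the peak, so their widths are given as a description with no test. The WT list held 54 of them among 21698 autosomal peaks (0.249%), and the Spen KO clone 3 list held 61 among 22457 (0.272%). Merged across the lists, the 115 peaks lay at 88 loci. At 27 loci the peak was very wide in both lists, at 27 in the WT list only and at 34 in the Spen KO clone 3 list only.

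The assay was ATAC-seq, in which the Tn5 transposase inserts adapters into open chromatin. It was run on HATX cells, haploid-derived mouse embryonic stem cells of mixed genomic background, grown in serum and LIF, with an Xist transgene on the X that doxycycline switches on. WT cells, Spen KO clone 2 and Spen KO clone 3 (most of the Spen gene deleted) each have 1 record without and 1 with doxycycline (2 µg/ml, 48 hr), 6 in all. The lists name the line alone, so the doxycycline state behind each list is not known, and clone 2 was not analysed here. Each line had 1 list, built on 2 technical replicates, and Spen KO clone 3 is a single clone, so no test between WT and Spen KO cells was possible, and loss of Spen cannot be told apart from other properties of the clone. All intervals below are 95% Wilson intervals for shares and cover counting error only, and the read depth is unknown.

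Most ATAC-seq peaks mark promoters and enhancers, where nucleosomes are displaced over a short stretch. A wide peak can form where several such sites stand side by side, as at a bidirectional promoter with long flanks. It can also form over tandemly repeated sequence. The 5′ end of a mouse LINE element, a retrotransposon that encodes its own reverse transcriptase, is a promoter made of head-to-tail repeats called monomers. Spen is an RNA-binding repressor that acts with Xist in X inactivation.

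By sequence, the very wide peaks fell into a small number of kinds. Tandem arrays with a repeat unit of 200 to 220 bp made up 16 of 54 in the WT list and 34 of 61 in the Spen KO clone 3 list. Promoters of coding genes, outside repeats, made up 25 and 16. Copies of mitochondrial DNA in the nuclear genome accounted for 2 in each list, other repeats for 3 and 5, and all other sequence for 8 and 4. The nearest coding gene is used below as a name for a peak and says nothing of the gene's regulation.

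The units of the tandem arrays are shown first, because these arrays were the largest kind in the Spen KO clone 3 list. Each is 1 unit from a very wide peak, from the mm9 genome (NCBIM37), printed in the sense of the LINE sequence beside it. Capitals mark CGCCATCT, the reverse complement of AGATGGCG, an 8-letter word that was picked after the sequences had been seen and that contains a core recognised by the zinc finger protein YY1. The 206 bp unit lies at chr4:72955897-72956102 on the plus strand, in the peak nearest Gm11487. The pair of 212 bp units are neighbours at chr16:46643906-46644117 and chr16:46644118-46644329 on the plus strand, in the peak nearest Pvrl3. The 214 bp unit lies at chr5:90971509-90971722 on the minus strand, in an intron of Afm.
206 bp unit: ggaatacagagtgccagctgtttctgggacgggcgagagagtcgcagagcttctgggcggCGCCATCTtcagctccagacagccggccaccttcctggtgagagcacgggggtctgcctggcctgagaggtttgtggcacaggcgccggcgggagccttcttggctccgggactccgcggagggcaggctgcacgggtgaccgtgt
212 bp unit 1: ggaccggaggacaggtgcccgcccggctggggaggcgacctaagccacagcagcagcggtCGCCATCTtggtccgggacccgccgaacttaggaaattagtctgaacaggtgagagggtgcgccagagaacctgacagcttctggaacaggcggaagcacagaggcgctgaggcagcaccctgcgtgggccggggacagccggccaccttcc
212 bp unit 2: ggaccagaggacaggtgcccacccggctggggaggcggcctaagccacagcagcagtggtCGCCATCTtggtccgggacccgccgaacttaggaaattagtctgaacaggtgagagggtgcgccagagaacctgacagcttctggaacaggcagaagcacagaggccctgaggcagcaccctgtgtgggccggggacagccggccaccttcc
214 bp unit: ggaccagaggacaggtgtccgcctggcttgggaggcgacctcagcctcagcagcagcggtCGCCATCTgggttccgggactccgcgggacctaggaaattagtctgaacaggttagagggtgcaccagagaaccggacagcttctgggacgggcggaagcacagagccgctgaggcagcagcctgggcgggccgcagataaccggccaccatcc

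The printed units were cut so that the word starts at the same position in each. Successive copies of the word in these peaks were spaced by 206 bp in 5 of 6 gaps, by 212 bp in 6 of 7 and by 214 bp in 6 of 6. Compared base by base without gaps, the 206 bp unit matched the next unit at 100% of its bases and the 214 bp unit at 99.5%. The first 212 bp unit matched the second at 96.7%, with 7 differences. The peak ended before the following unit was complete, so the second was not compared with it. Counted from 1 at the 5′ end of the printed unit, with the base of unit 1 first, the differences between the first and the second were G6A, G21A, A38G, C57T, G153A, G167C and C184T.

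The other repeats had shorter units or a satellite unit, and capitals mark the first unit. The repeat nearest Tmem125 (chr4:118220287-118220374) has a unit of 44 bp. The one in an intron of Tcte2, nearest Smok4a (chr17:13743526-13743595), has a unit of 5 bp. The one nearest Plekhg6 (chr6:125366112-125366153) has a unit of 7 bp. For the peak at Gm10722 (chr9:3000690-3000923) 1 unit of 234 bp is printed, the unit length of the mouse major satellite found beside centromeres. All are on the plus strand of mm9.
Tmem125: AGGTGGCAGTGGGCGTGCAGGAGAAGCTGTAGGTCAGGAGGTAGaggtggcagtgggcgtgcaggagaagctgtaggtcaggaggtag
Smok4a: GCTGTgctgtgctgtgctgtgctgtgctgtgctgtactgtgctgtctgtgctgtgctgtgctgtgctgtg
Plekhg6: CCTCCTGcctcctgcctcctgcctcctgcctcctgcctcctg
Gm10722: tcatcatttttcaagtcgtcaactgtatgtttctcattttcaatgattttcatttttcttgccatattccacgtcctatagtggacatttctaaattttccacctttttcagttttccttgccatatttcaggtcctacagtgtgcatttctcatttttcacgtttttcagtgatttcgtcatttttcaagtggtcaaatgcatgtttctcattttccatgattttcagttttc

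The widest peak of both lists lay on a nuclear copy of mitochondrial DNA and differed from the mitochondrial genome of the same build by 1 base and 1 gap. The stretch around that base is printed to show how alike the copies are, with the base that differs in capitals, for chr1:24619936-24619976 on the plus strand and for chrM:9441-9481 on the minus strand. Counted from the first base of the WT peak, with the mitochondrial base first, the difference is A1547G.
nuclear copy: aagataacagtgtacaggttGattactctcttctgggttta
mitochondrial genome: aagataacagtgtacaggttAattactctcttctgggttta

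For the promoters, the 200 bases upstream of the TSS are shown for Nr1d2 (chr14:19071642-19071841, minus strand), which encodes the nuclear receptor REV-ERB beta, and for Sp4 (chr12:119539914-119540113, minus strand), which encodes a zinc finger factor that binds GC boxes. Both had very wide peaks with high scores in both lists. Capitals mark GGGCGG, the GC box, and CCAAT, the CCAAT box, on either strand. Nr1d2 held 3 GC boxes and 1 CCAAT box, and Sp4 held 4 and 1.
Nr1d2: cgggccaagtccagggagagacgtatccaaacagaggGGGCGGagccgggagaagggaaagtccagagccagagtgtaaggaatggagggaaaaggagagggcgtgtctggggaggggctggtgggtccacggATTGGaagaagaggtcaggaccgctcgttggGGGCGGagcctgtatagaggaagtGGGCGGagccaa
Sp4: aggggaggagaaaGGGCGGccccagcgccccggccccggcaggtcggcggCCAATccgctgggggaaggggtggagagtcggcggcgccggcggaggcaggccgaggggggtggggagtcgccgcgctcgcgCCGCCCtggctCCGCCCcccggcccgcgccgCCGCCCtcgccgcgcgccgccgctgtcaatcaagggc

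The composition of the lists changed with width. Arrays were 0.319% of WT peaks under 500 bp, 7.72% of those from 750 to 999 bp and 29.6% (interval 19.1 to 42.8) of the very wide ones, against a background of 2.81% of all autosomal WT peaks. In the Spen KO clone 3 list the shares were 0.389%, 16.8% and 55.7% (interval 43.3 to 67.5), against 5.70% of all. None of the 5 WT and 4 Spen KO clone 3 peaks of at least 2000 bp was an array. Among very wide peaks with an IDR (irreproducible discovery rate) up to 0.01, the array share was 2.94% in WT (1 of 34) and 30.3% in Spen KO clone 3 (10 of 33). An array needs several units inside a peak to be recognised, so narrow peaks could hardly qualify under this definition. Promoters were most frequent at intermediate width, with 70.1% of WT peaks from 1000 to 1249 bp and 46.3% of the very wide ones. In the Spen KO clone 3 list these shares were 55.7% and 26.2%.

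**Figure D1:**
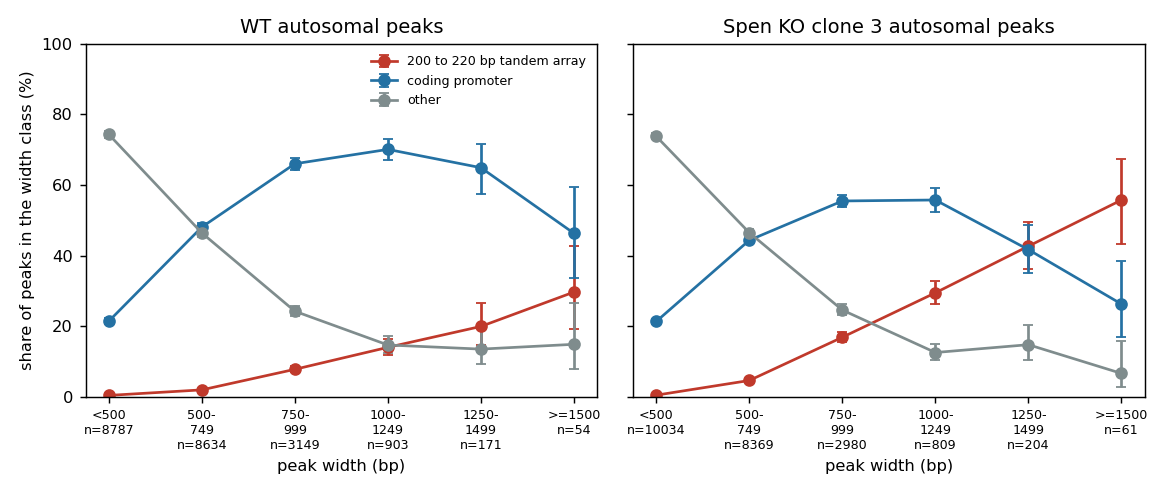
Share of autosomal peaks (%, vertical axis) that were tandem arrays of 200 to 220 bp, coding promoters or other sequence, by peak width in bp (horizontal axis), for the WT list and the Spen KO clone 3 list; bars are 95% Wilson intervals. The array share is highest in the class from 1500 bp up, at 29.6% in WT and 55.7% in Spen KO clone 3 (2.94% and 30.3% with IDR up to 0.01, and 0% of the peaks from 2000 bp up), while the promoter share falls to 46.3% and 26.2%.

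The share of each kind that was very wide can be read only with the array definition in mind, since it leaves out most narrow peaks and so raises the share for arrays. Of 610 WT arrays, 2.62% (interval 1.62 to 4.22) reached 1500 bp, against 0.282% (0.191 to 0.416) of 8874 promoters and 0.0698% of 11466 other peaks. In the Spen KO clone 3 list it was 2.66% (1.91 to 3.69) of 1280 arrays, 0.199% of 8052 promoters and 0.0329% of 12160 other peaks. The share of arrays that were very wide was thus close in the lists, while the number of arrays differed.

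A separate definition of repeated sequence was that at least 50% of the 24-base words of a peak occur at least 10 times in the genome. By it, 18 WT members (33.3%, interval 22.2 to 46.6) and 38 Spen KO clone 3 members (62.3%, 49.7 to 73.4) were multi-copy. Over all autosomal peaks the shares were 5.36% and 9.05%. Besides all the arrays, the multi-copy members were those nearest Zfp825 and Smok4a in both lists, and those nearest Plekhg6 and at Gm10722 in the Spen KO clone 3 list. Coding promoter windows were touched by 26 WT members (48.1%, interval 35.4 to 61.1) and 18 Spen KO clone 3 members (29.5%, 19.6 to 41.9), with backgrounds of 41.2% and 36.1%. These counts include Gm10222 and Gm10925, which start inside the mitochondrial copy, and the satellite peak at Gm10722.

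Median width was 1592 bp in the WT list (1504 to 4577) and 1651 bp in the Spen KO clone 3 list (1500 to 4572). Only 5 WT and 4 Spen KO clone 3 peaks reached 2000 bp, and 225 and 265 came within 250 bp of the threshold or passed it. Just inside the threshold in WT were the peaks at Rbms1 and in Gabrg3, both 1504 bp, and at Grk5, 1510 bp. Just outside were those at Cox6b2 (1494 bp), Gm10722 (1491 bp) and in Pcdh9 (1491 bp). In the Spen KO clone 3 list the arrays nearest Slc39a10 (1500 bp), Smc2 (1502 bp) and Cdh20 (1503 bp) were inside. The peaks at Prcp (1493 bp) and nearest Chsy3 (1496 bp) and Fam180a (1489 bp) were outside. The peaks at Gm10722 and in Pcdh9 that just missed the threshold in WT were very wide in Spen KO clone 3.

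Most members had a counterpart in the other list, as did most autosomal peaks. Of the WT members, 48 of 54 (88.9%, interval 77.8 to 94.8) overlapped a Spen KO clone 3 peak, and of the Spen KO clone 3 members, 42 of 61 (68.9%, 56.4 to 79.1) overlapped a WT peak. Over all autosomal peaks, 74.0% of WT and 71.6% of Spen KO clone 3 peaks overlapped the other list, and 26.0% and 28.4% did not. A wider peak also has more room for an overlap. The counterpart was itself very wide for 50% (37.1 to 62.9) of WT members and 44.3% (32.5 to 56.7) of Spen KO clone 3 members. The members were a median of 74 bp and 55 bp wider than their counterparts, which selection for width favours. The Spen KO clone 3 value turned to -26.5 bp among peaks of at least 2000 bp and to -5 bp with IDR up to 0.01 in both lists.

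**Figure D2:**
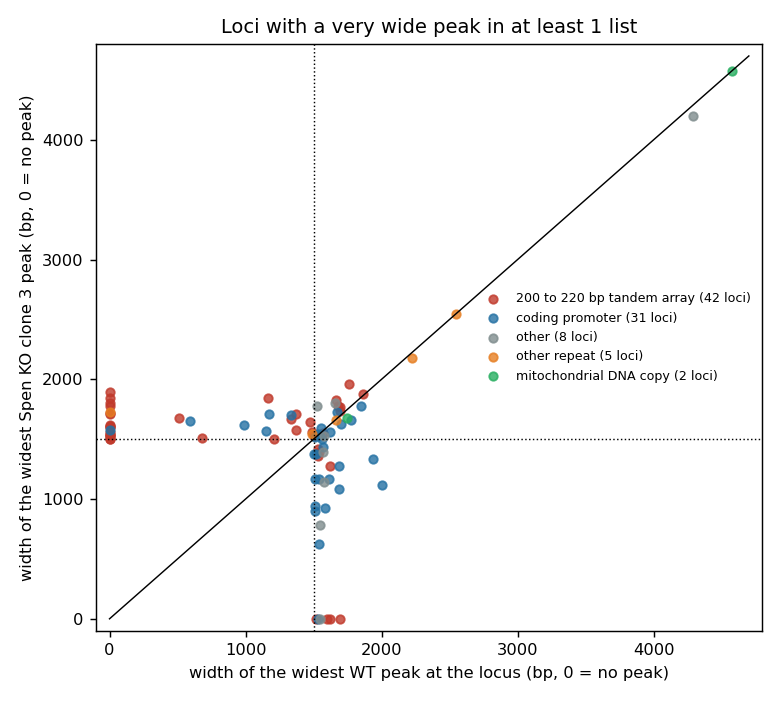
Width in bp of the widest WT peak (horizontal axis) and the widest Spen KO clone 3 peak (vertical axis) at each of the 88 loci with a very wide peak, coloured by kind; 0 means no peak, dotted lines mark 1500 bp and the solid line equal widths. Of the 19 points at 0 on the WT axis 17 are arrays, a kind of which 41.7% overlapped a WT peak at any width, and the loci over 2000 bp in both lists sit on the line of equal width.

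Kinds of peak differed in how they were shared. Of the 42 array loci, 8 were very wide in both lists, 8 in WT only and 26 in Spen KO clone 3 only. Among the latter, 17 had no WT peak at all, while 4 of the 8 WT-only array loci had no Spen KO clone 3 peak. Arrays of any width overlapped the other list in 534 of 610 cases in WT (87.5%) and in 534 of 1280 in Spen KO clone 3 (41.7%), and the very wide ones in 12 of 16 (75%, interval 50.5 to 89.8) and 17 of 34 (50%, 34.1 to 65.9). Of the 31 promoter loci, 10 were very wide in both, 15 in WT only and 6 in Spen KO clone 3 only, and in each of the last groups 1 locus (Ccdc9 and Epc2) had no peak in the other list. The very wide promoters thus overlapped the other list in 24 of 25 cases in WT (96%, interval 80.5 to 99.3) and in 15 of 16 in Spen KO clone 3 (93.8%, 71.7 to 98.9), against 79.9% and 87.9% of promoters of any width. All 5 loci of mitochondrial copies or of other repeats that were very wide in WT were also very wide in Spen KO clone 3.

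Where a WT member met several Spen KO clone 3 peaks, the accessible stretch was broken by a gap in that list. This was so for 6 of 54 members (11.1%), against 0.249% of all autosomal WT peaks. The WT peak at Hist2h2aa2 (1937 bp) faced peaks of 1337 and 441 bp, and the one at Btf3l4 and Txndc12 (1540 bp) faced 626 and 537 bp. At D1Ertd622e (1511 bp) they measured 616 and 900 bp, at Grk5 (1510 bp) 321 and 941 bp, at Kcnn2 (1688 bp) 763 and 1084 bp, and nearest Ly6c2 (1574 bp) 258 and 1142 bp. Conversely, 2 of 61 Spen KO clone 3 members (3.28%), at Rap2b and Fut8, faced several WT peaks, against 0.147% of all autosomal peaks of that list. A wider peak has room to meet more peaks. A break in a list can come from the depth of that list as well as from chromatin, and these cannot be told apart here.

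Score percentiles differed between the kinds. The score is the mean of the authors' replicate values, turned into a percentile of the own list because its scale is not named. Members had a median percentile of 52.3 (WT) and 34.8 (Spen KO clone 3). With IDR up to 0.01 the medians were 62.2 and 65.3, so the order of the lists turned. For the score per kb of peak they were 1.24 and 0.43. That measure divides by the length on which members were chosen, which by itself lowers their rank. Arrays scored low, with medians of 12.9 (4.43 to 57.6) in WT and 24.2 in Spen KO clone 3 (12.2 to 79.7), below the medians of 27.1 and 42.3 for arrays under 1500 bp. Very wide promoters had medians of 62.6 and 80.1, against 62.1 and 59.6 for narrower promoters. The other repeats and mitochondrial copies stood above the percentile of 95 in every case except the Plekhg6 repeat, at 20.3.

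**Figure D3:**
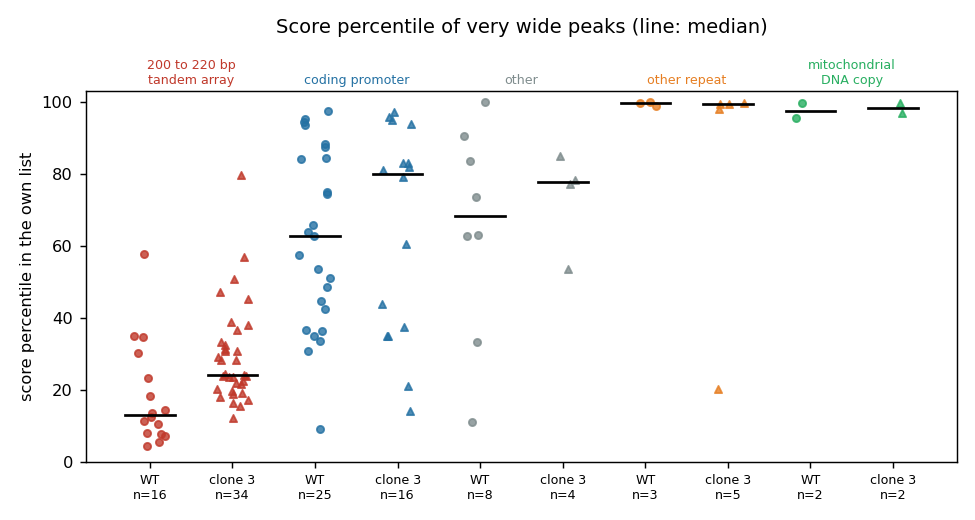
Score percentile within the own list (vertical axis) of every very wide peak, by kind and list; circles are WT, triangles Spen KO clone 3, and black lines medians. Arrays lie low, with medians of 12.9 and 24.2, and mitochondrial copies near the top, with 95.4 as the lowest.

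At the 63 loci with a peak in both lists, the percentile was higher in Spen KO clone 3 at 39, where the background over all shared autosomal peaks was 49.5%. Among arrays this was so at 17 of 21 loci, with a median difference of 10.7 percentile points, and among promoters at 14 of 29, with a median of -0.33. The same split held over all shared peaks of these kinds, of any width. Of 534 shared arrays 458 ranked higher in Spen KO clone 3, by a median of 17.4 points, and of 7087 shared promoters 2624 did, with a median of -2.78. Shared arrays of any width were also a median of 64 bp wider in Spen KO clone 3, while shared promoters had a median difference of -33 bp.

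Arrays in both lists had the same 3 unit classes. In WT, 2 had a period of 205 to 206 bp, 11 of 212 bp and 3 of 214 bp, and in Spen KO clone 3 the counts were 6, 22 and 6. Of 594 narrower WT arrays 12.3%, 67.7% and 17.7% had these periods, and of 1246 in Spen KO clone 3 it was 9.47%, 71.1% and 14.8%. A very wide array spanned a median of 7.65 units in WT (7.09 to 9.10) and 7.70 in Spen KO clone 3 (7.06 to 9.26). The median number of genome copies of its 24-base words was 2398 (WT) and 2276 (Spen KO clone 3). Copy number followed the unit class, from 631 to 768 copies for the period of 214 bp up to 3445 for that of 212 bp.

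**Figure D4:**
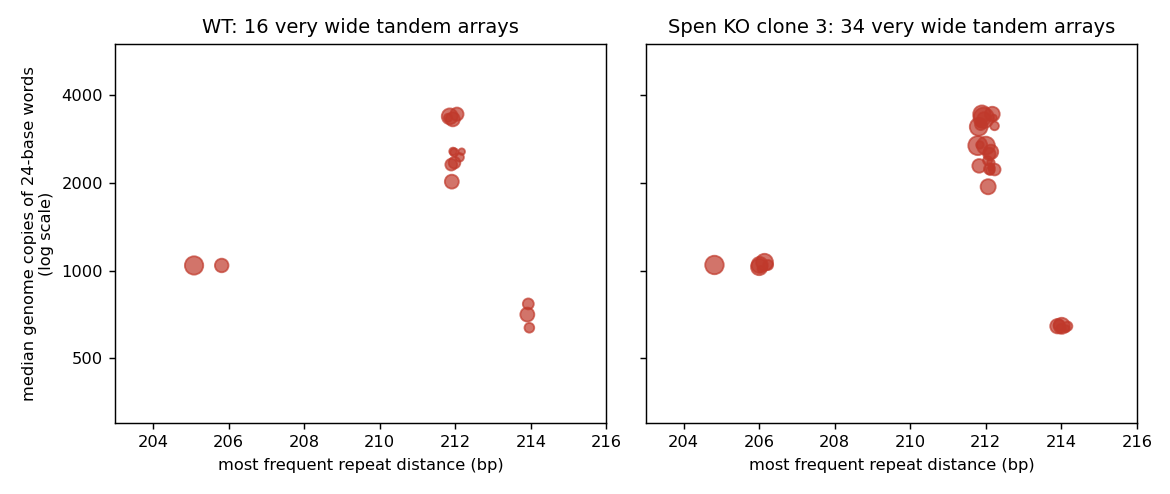
Median number of genome copies of the 24-base words of each very wide array (vertical axis, log scale) by its most frequent repeat distance in bp (horizontal axis, slightly jittered), for WT (16 arrays) and Spen KO clone 3 (34 arrays); point size grows with peak width. Points form the same 3 groups in both lists, near 206, 212 and 214 bp.

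All 16 WT and all 34 Spen KO clone 3 very wide arrays lay on the 5′ side of a LINE match, at a median distance of 32 bp and 29 bp. Of arrays of any width, 602 of 610 and 1263 of 1280 lay on that side. Of WT peaks of the other kind near such a match, 931 lay on the 5′ side and 998 on the 3′ side. The array kind and the LINE match are separate measures, since the former was taken from repeat distances alone. The match was to 4 elements named L1Md_F or L1Md_F2, so the class of LINE was not resolved further.

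The word AGATGGCG stood in the central 300 bp of all 16 and all 34 very wide arrays, with a median of 7 sites per peak, and in 98.3% and 96.5% of narrower arrays. It stood in 5.15% and 8.22% of all autosomal peaks, in 0 of 25 very wide WT promoters and in 0 of 16 in Spen KO clone 3. The GC box GGGCGG stood in that window of 14 of 16 and 28 of 34 arrays, against 84.3% and 79.9% of narrower arrays and 45.4% and 43.2% of all peaks. The word CCGGAAG, an ETS factor site, stood in 10 of 16 and 18 of 34, against 52.0% and 55.1% of narrower arrays and 11.7% and 12.4% of all peaks. CCAAT stood in 0 of 16 and 0 of 34, against 1.18% and 1.20% of narrower arrays and 35.5% and 34.5% of all peaks. Units of an array are copies of each other, so these are not independent sites, and a match says nothing of binding.

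By position, 12 WT arrays were intergenic, 4 intronic and 0 exonic, and in Spen KO clone 3 these counts were 23, 11 and 0. The intergenic share was 75% and 67.6%, against 68.7% and 71.7% of arrays of any width and 47.6% and 50.6% of all autosomal peaks. The array nearest Pvrl3 measured 1691 bp in WT, with replicate values of 20.3 and 12.9, and 1732 bp in Spen KO clone 3, with 11.5 and 14.4. The array nearest Sox4 (chr13:29162760-29164522 in WT) measured 1763 bp with values of 10.02 and 13.3 in WT. In Spen KO clone 3 it was the widest array, with 1964 bp and values of 13.1 and 12.9. The replicate values overlapped between the lists at both loci.

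Other arrays were of similar size in both lists. The array in an intron of Tmem132d, nearest Slc15a4, measured 1866 bp in WT and 1874 bp in Spen KO clone 3. The array nearest Gm11487 measured 1680 and 1778 bp, with percentiles of 18.2 and 45.1. The array in Afm measured 1569 and 1554 bp, with percentiles of 30.3 and 50.8. The widths at these 3 loci differed by at most 98 bp, and the percentile was higher in the Spen KO clone 3 list at each.

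Of the 26 arrays that were very wide in Spen KO clone 3 only, 17 had no WT peak and 9 had one of 510 to 1491 bp, against a median of 836.5 bp for all WT arrays under 1500 bp. Among the 9, 7 had a WT peak of at least 1162 bp. The array in an intron of March1, which encodes a membrane ubiquitin ligase, measured 510 bp in WT and 1681 bp in Spen KO clone 3. The one nearest Zeb2 measured 681 and 1511 bp and had the highest percentile of any very wide array, 79.7. The one nearest Cttnbp2 measured 1162 and 1848 bp. In an intron of Sorcs2 an array of 1895 bp had no WT peak, with replicate values of 10.5 and 12.9. Of the members without a WT peak, the highest percentiles were those nearest Gm11564 (38.8), 4930423O20Rik (33.3) and Cdh20 (32.4), all arrays. In WT the array nearest Npsr1 (1600 bp, percentile 13.4) had no Spen KO clone 3 peak.

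Very wide arrays had higher IDR values than very wide promoters. How far replicate values differed was not compared between these kinds, and the arrays also had lower score percentiles. Their median IDR, on which the lists were filtered at 0.05, was 0.0342 (WT) and 0.0182 (Spen KO clone 3), against 2.0e-04 and 7.7e-05 for very wide promoters. The array shares with IDR up to 0.01 had intervals of 0.521 to 14.9 in WT and 17.4 to 47.3 in Spen KO clone 3. The part that depth and read mapping play in the number of arrays was not tested.

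Among the very wide promoters, 23 WT and 15 Spen KO clone 3 peaks held the coding TSS. They reached a median of 752 bp upstream and 831 bp downstream of it in WT, and 977 bp and 754 bp in Spen KO clone 3. Narrower WT promoter peaks reached 331 and 291 bp. More than 1 coding gene started in 7 of 23 WT peaks (30.4%), against 9.65% of narrower ones, and in 3 of 15 in Spen KO clone 3 (20%), against 9.48%. A wider peak has room for more starts, and the members were chosen by width.

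**Figure D5:**
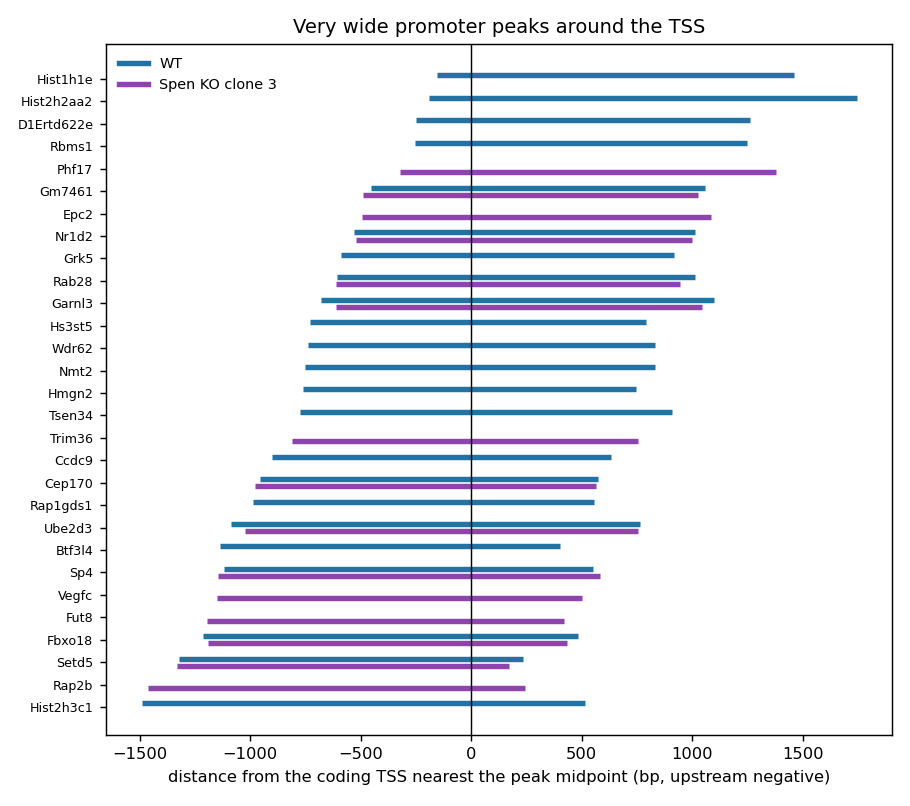
Extent of very wide promoter peaks in bp around the coding TSS nearest the peak midpoint (horizontal axis, upstream negative), 1 row per gene, WT in blue and Spen KO clone 3 in purple. Peaks very wide in both lists, such as Nr1d2 and Sp4, have nearly the same ends, and some reach mainly downstream (Hist2h2aa2, Hist1h1e) or mainly upstream (Hist2h3c1, Rap2b).

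The 10 promoter loci that were very wide in both lists were nearly equal in width, with differences (Spen KO clone 3 minus WT) from -122 to 58 bp and a median of -39.5 bp. Nr1d2 measured 1544 bp in WT, with replicate values of 60.8 and 45.4, and 1523 bp in Spen KO clone 3, with 47.5 and 33.6. Sp4 measured 1672 bp (48.8 and 39.2) and 1730 bp (47.8 and 46.6). Replicate values of both genes overlapped between the lists, although their scale may differ. The percentiles in WT and Spen KO clone 3 were 97.5 and 94.9 at Nr1d2, and 94.5 and 97.2 at Sp4. The shared promoter of Cep170, a centrosomal protein gene, and Sdccag8, a ciliary protein gene, measured 1531 and 1543 bp, with percentiles of 93.5 and 79.1. That of Fbxo18, an F-box helicase gene, and Ankrd16 measured 1701 and 1624 bp.

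The remaining loci of this kind included enzymes and a chromatin factor. Ube2d3, which encodes a ubiquitin-conjugating enzyme, measured 1852 and 1781 bp, and Rab28, which encodes a small GTPase, 1624 and 1557 bp. Garnl3 measured 1778 and 1656 bp and Gm7461 1512 and 1518 bp. The peak at Setd5, which encodes a SET-domain chromatin protein, measured 1561 and 1503 bp. It also covered 1292 and 1301 bp of the noncoding gene Gt(ROSA)26Sor, the locus widely used for transgene insertion. The peak upstream of Refbp2, an RNA export factor gene, measured 1555 and 1592 bp and covered the 116 bp of a U5 snRNA gene, a spliceosomal RNA.

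Promoters that were very wide in WT only had narrower Spen KO clone 3 peaks. The largest differences were at Btf3l4 and Txndc12 (1540 bp in WT, 626 bp for the wider Spen KO clone 3 peak), at Hist2h3c1 and Hist2h2aa1 (2006 and 1117 bp), at Nmt2, an N-myristoyltransferase gene (1584 and 922 bp), and at D1Ertd622e (1511 and 900 bp). Rank did not always drop with width. At Nmt2 the percentiles were 87.4 and 94.5, at D1Ertd622e 44.5 and 87.3, and over the 14 such promoter loci with a Spen KO clone 3 peak it was higher in Spen KO clone 3 at 9 and lower at 5, where 2624 of all 7087 shared promoters ranked higher.

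Further promoters of this group differed less in width. At Mboat7 and Tsen34, a tRNA splicing endonuclease subunit gene, the widths were 1684 and 1280 bp. At Thap8 and Wdr62, a spindle pole protein gene, they were 1569 and 1437 bp. At Hmgn2, which encodes a nucleosome-binding protein, they were 1510 and 1168 bp, with the low percentiles of 9.09 and 6.26. At Rap1gds1 they were 1543 and 1171 bp, with percentiles of 63.9 and 22.5, the largest drop in percentile at a promoter of this group. Hs3st5, a heparan sulphate sulphotransferase gene, had 1520 and 1379 bp. Ccdc9 (1534 bp, percentile 36.5) had no Spen KO clone 3 peak.

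Promoters that were very wide in Spen KO clone 3 only numbered 6. At Vegfc, which encodes a growth factor of lymphatic vessels, the WT peak measured 590 bp with a percentile of 64.5, and the Spen KO clone 3 peak 1651 bp with a percentile of 21.03, so the wider peak ranked lower. At Fut8, a core fucosyltransferase gene, the widths were 990 and 1618 bp. At Rap2b, a small GTPase gene, they were 1171 and 1711 bp, and at Phf17, a PHD-finger gene, 1332 and 1701 bp. Trim36 and 1700018A14Rik shared a peak of 1154 bp in WT and 1566 bp in Spen KO clone 3. Epc2, whose product belongs to a histone acetyltransferase complex, had a peak of 1580 bp with a percentile of 14.1 and no WT peak.

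Histone genes were the one group, of 11 gene lists, with very wide promoter peaks. Of 61 histone genes with a WT promoter peak, 5 had a very wide one: Hist1h1e, Hist1h2be, Hist2h2aa1, Hist2h2aa2 and Hist2h3c1. Over all coding genes it was 34 of 9401 (0.362%) in WT and 22 of 8538 (0.258%) in Spen KO clone 3. In Spen KO clone 3, 0 of 57 histone genes with a promoter peak reached 1500 bp, and the widest measured 1344 bp, at Hist1h2ah. The 5 genes lay in 3 peaks, and histone genes had wide promoter peaks in general, with a median of 1028 bp in WT and 978 bp in Spen KO clone 3, against 659 and 628.5 bp over all coding genes.

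A pair of these peaks are near-copies of each other. The peak at Hist2h2aa2 (chr3:96042471-96044407) and the one at Hist2h3c1 and Hist2h2aa1 (chr3:96049183-96051188) stand 4775 bp apart in inverted order and were 99.688% identical over 1923 aligned bases, with 2 mismatches. They had almost the same percentile in WT, 75.1 and 74.5. Reads from such copies can hardly be assigned to one of them, so their values are uncertain. The peak at Hist1h1e, a linker histone gene, and Hist1h2be, an H2B gene, measured 1616 bp in WT and 1170 bp in Spen KO clone 3, with percentiles of 34.9 and 37.7.

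Promoter members were GC-rich, with a median GC content of 64.5% in WT and 65.3% in Spen KO clone 3 and CpG observed-to-expected ratios of 0.761 and 0.767. Narrower promoters had 63.4% and 63.4%, with ratios of 0.768 and 0.762. Very wide arrays had a median GC content of 65.2% in WT and 64.98% in Spen KO clone 3, with CpG ratios of 0.602 and 0.596. In the central 300 bp, GGGCGG stood in 18 of 25 WT and 14 of 16 Spen KO clone 3 promoters, against 73.4% and 72.5% of narrower promoters. CCAAT stood in 10 of 25 and 7 of 16, against 38.9% and 40.2% of narrower promoters.

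The widest peak of both lists, chr1:24618410-24622986 in WT, measured 4577 bp there and 4572 bp in Spen KO clone 3. It was 99.956% identical to positions 6431 to 11006 of the mitochondrial genome. That stretch holds mt-Co1, mt-Co2, mt-Atp8, mt-Atp6, mt-Co3, mt-Nd3, mt-Nd4l and mt-Nd4, genes of the respiratory chain. Its replicate values were 46.2 and 46.0 in WT and 45.4 and 45.1 in Spen KO clone 3, at percentiles of 95.4 and 96.8. A second copy, near Myo3a (chr2:22444046-22445788, over the pseudogenes Gm13340 and Gm13339), measured 1743 and 1675 bp and was 97.9% identical to mt-Nd2 and mt-Co1 in WT, with 34 mismatches. Mitochondrial DNA carries no nucleosomes and is cut heavily in ATAC-seq. Whether the reads in these peaks came from the nuclear copy or from mitochondria was not tested.

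The second widest peak, chr17:39979999-39984290, measured 4292 bp in WT and 4201 bp in Spen KO clone 3, with percentiles of 73.6 and 78.2. No coding TSS lay within 363 kb, the GC content was 66.2% and the CpG ratio 0.951, close to that of a CpG island. The pseudogene AY036118 lay 758 bp from its end. Mouse assemblies carry a copy of the ribosomal RNA repeat at this place, but a match to ribosomal RNA was not computed here. The repeats nearest Smok4a (2550 and 2543 bp, percentiles 99.6 and 99.5) and Zfp825 (2226 and 2180 bp, 98.7 and 97.9) were the next widest in both lists.

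The remaining repeats were shorter. The repeat nearest Tmem125 measured 1667 bp in WT and 1661 bp in Spen KO clone 3, with percentiles of 99.8 and 99.5. The satellite peak at Gm10722 measured 1491 bp in WT and 1543 bp in Spen KO clone 3, at percentiles of 99.7 and 99.8, a difference of 52 bp across the threshold. The 7 bp repeat nearest Plekhg6 (1729 bp) had no WT peak. All but the last ranked near the top of their list.

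Outside promoters and repeats, a member at the 3′ side of the Mir290 to Mir295 cluster, the main microRNA cluster of embryonic stem cells, overlapped an exon of Nlrp12. It measured 1525 bp in WT (chr7:3221038-3222562, replicate values 39.8 and 35.9) and 1773 bp in Spen KO clone 3 (17.0 and 33.1). Percentiles were 90.5 and 77.0. The WT peak ended 196 bp short of Mir295, and the Spen KO clone 3 peak covered 8 bp of it. Both WT values were above both Spen KO clone 3 values, although the scale of the values may differ between lists.

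Further members near noncoding genes were very wide in WT alone. A peak of 1571 bp nearest Zbtb37 lay 630 bp past the end of Gas5, a noncoding host gene of small nucleolar RNAs, and its Spen KO clone 3 counterpart measured 1391 bp. A peak of 1545 bp in BC107364 covered a U1 snRNA gene of 166 bp and had no Spen KO clone 3 peak, but 99.9% of its 24-base words occurred more than once in the genome. Small RNA genes were overlapped by 2 of 54 WT members (3.70%, interval 1.02 to 12.5) and 2 of 61 Spen KO clone 3 members (3.28%, 0.904 to 11.2). Over all autosomal peaks the shares were 0.521% and 0.436%. A wider peak has room for more such genes, and the overlap with Mir295 in Spen KO clone 3 was only 8 bp.

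The last members lay far from any start. A peak 65.2 kb from Pde4d, which encodes a cAMP phosphodiesterase, measured 1661 bp in WT, with replicate values of 21.5 and 23.5, and 1803 bp in Spen KO clone 3, with 33.3 and 24.9. This peak stood at the percentiles of 62.7 and 84.9. In introns of Fam53b and Fgfr2 annotations a peak measured 1576 and 1530 bp, with percentiles of 62.8 and 53.6. A peak 19.3 kb from Wnt11, a Wnt ligand gene, measured 1548 bp in WT and 782 bp in Spen KO clone 3, at the low percentiles of 11.0 and 21.6. The peak nearest Ly6c2 had the highest percentile of all WT members, 99.9, with replicate values of 99.1 and 175.5, and 55.2% of its 24-base words occurred more than once.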

How the data were processed

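Per the labels and the methods of the study, ATAC-seq reads were trimmed with CutAdapt, mapped to mm9 with Bowtie2, kept where unique and properly paired, cleared of duplicates with Picard and used for MACS2 peak calling (q of 0.01, no shifting model). Peaks with an IDR under 0.05 between 2 technical replicates were kept by the authors. The paper also describes a second alignment, in which a read with several matches was placed at a random one. The lists themselves do not name their alignment. Versions are not given in the sources used here. The lists deposited by the authors give a start, an end, a length in bp, a value per replicate on a scale that is not named, and the IDR of each peak. Values were therefore used as percentile ranks within a list. The read depth is unknown, and unique mapping can lower signal in repeats.

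Autosomal peaks with a length of at least 1500 bp were taken as members. Peaks that shared at least 1 bp were called overlapping, and the widest overlapping peak was the counterpart. The window of a coding promoter, in the GENCODE annotation of mm9, covered the 1000 bp before a TSS and the 100 bp after it. Copies of 24-base words were counted on both strands of the genome. A tandem array had at least 20% of its 12-base words recurring at 1 distance of 200 to 220 bp (within 5 bp). A mitochondrial copy had at least 50% of its 24-base words in the mitochondrial genome. Other repeats were multi-copy peaks or those with at least 10% of words at 1 distance. LINE matches (at least 80% identity over 500 bp, within 8 kb) used 4 L1Md_F and L1Md_F2 elements of the study's repeat sheet as queries, by sequence only. The scripts were tested on simulated data. BLAST 2.17.0, samtools 1.23.1, bedtools 2.31.1 and Python 3.11.15 were used, with pysam 0.24.0, matplotlib 3.10.9, numba 0.67.0, scipy 1.17.1, pandas 2.3.3 and numpy 2.4.6.

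Members, gene lists and alternatives were chosen with earlier results of these data known. The array measure, the mitochondrial measure, the LINE side and the word AGATGGCG were added after the data had been seen. Named peaks were the 5 widest of each list, the 5 that most exceeded their counterpart and the 3 highest-scoring without one. Also named were those nearest the threshold, at listed genes, the 5 widest over 5 kb from a coding TSS, the 3 widest multi-copy peaks and those with most coding starts; further peaks were named after their values were seen.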

Additional observations from a re-analysis of the deposited data

Results flagged for a closer look

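Very wide peaks also occurred on sequence outside the autosomes, which no comparison above used. The X chromosome held 6 among 1000 WT peaks and 5 among 1199 Spen KO clone 3 peaks, with widest peaks of 1885 and 1747 bp. Unplaced sequences held 3 among 53 WT peaks and 4 among 64 Spen KO clone 3 peaks, with widest peaks of 1925 and 3279 bp. Over all autosomal peaks, 0.249% in WT and 0.272% in Spen KO clone 3 were very wide. The counts outside the autosomes are small, and no test was made. The X chromosome carries the Xist transgene, and the doxycycline state of the lists is not known.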

How the results depend on the processing

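With 1 list per line, these are shares and medians with no test. Pairs of values below are WT, then Spen KO clone 3. Numbers of members were 225 and 265 with the threshold lowered by 250 bp, 5 and 4 at 2000 bp, and 34 and 33 with IDR up to 0.01. At 2000 bp, 100% of both overlapped the other list, the counterpart was also very wide for 80% and 100%, the median score percentiles were 95.4 and 97.3, GC content 57.3% and 56.8%, CpG ratios 0.554 and 0.280, arrays 0% and 0%, and GGGCGG 0% and 0%. The median width difference in Spen KO clone 3 turned to -26.5 bp at 2000 bp and to -5 bp with IDR up to 0.01. That limit was applied to both lists, so it also removed counterparts. It changed the share at a coding promoter to 64.7% and 45.5%, multi-copy members to 8.82% and 39.4%, arrays to 2.94% and 30.3%, and arrays with no peak in the other list, itself limited to that IDR, to 0% of 1 and 80%. With it the WT CpG ratio was 0.70, GGGCGG in WT 47.1%, and in Spen KO clone 3 the percentile 65.3, GC content 63.7% and very wide counterparts 57.6%. Among the 100 widest peaks of each list, counterparts were very wide for 30% and 29.0%. With the lower threshold, WT members were at a coding promoter in 61.3% and Spen KO clone 3 members were multi-copy in 47.9%. Score per kb gave median percentiles of 1.24 and 0.43, which division by the length used to choose members lowers by itself. The 300 bp around the midpoint had a GC content of 66.0% in Spen KO clone 3. Over whole peaks, GGGCGG stood in 85.2% and 86.9%. Under the remaining alternatives, 112 values of the main results stayed within their interval or 1.5 times their count. The lists hold no reads, so depth sets an unknown limit on which wide peaks were detected, and leaving out a replicate could not be tried for the lists themselves.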

Other observations

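No promoter peak of the other 10 gene lists reached 1500 bp in either list. These lists had 8 to 56 genes with a promoter peak, and over all coding genes 0.362% in WT and 0.258% in Spen KO clone 3 were very wide, so a count of 0 does not set these lists apart. The widest for pluripotency regulators was at Rest in WT (1231 bp) and Jarid2 in Spen KO clone 3 (848 bp), of 21 and 19 genes with a promoter peak. Among immediate early genes it was Zfp36l2 (1081 and 1014 bp), among splicing factors Hnrnpa1 (1303 and 1322 bp), among chaperones Dnaja1 (1293 and 1167 bp), and among developmental transcription factors Zic2 (1287 and 1272 bp). For cell cycle regulators it was Mdm2 (1052 bp) in WT and Cdk2 (1055 bp) in Spen KO clone 3, for housekeeping genes Odc1 (1079 and 938 bp), and for Polycomb and repressor genes Rnf2 (913 bp) and Hdac2 (929 bp). Ribosomal protein genes reached 1175 bp at Rpl7 in WT and 688 bp at Rpl30 in Spen KO clone 3. Among Spen and its partners the widest was Hnrnpk (1198 bp) in WT and Rbm15 (1157 bp) in Spen KO clone 3.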
